A study of Mus musculus with 8 samples.

Results

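The mitosis and spindle genes followed here are 33 genes that encode mitotic cyclins, kinases, kinetochore proteins, motors and spindle proteins. They were taken as the array probes, control spots aside, whose gene name in the scanner files is one of these 33 symbols, which gave 48 of 55681 probes. Of these, 46 probes of 32 genes were measurable and tested, and Aurkb had no probe above background. The cells were mouse embryonic stem cells (ESC) taken through a neural induction to progenitors labelled as RGC-like NPC (neural progenitor cells), and all were collected at day 6. The KD d6 group carried a short hairpin RNA against Zrf1 (shZrf1) and the Control d6 group a control hairpin (shCtrl), with 4 arrays each. All samples of both groups went through the same induction and share the day of collection, and the labels give no clone, vector or strain. The labels number 4 replicates per group without saying that they came from separate cultures, so the p-values measure the spread between these samples, which may be technical. The deposited files number the KD arrays only 2 and 3, with 1 array of each number marked TR, whose meaning is not given.

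Mitosis is driven by cyclin-dependent kinase 1 with cyclins A and B, and ended when the anaphase-promoting complex (APC/C) marks securin and cyclin B for destruction. In between, kinetochores built on centromeres catch spindle microtubules, the checkpoint holds the APC/C back until every chromosome is attached, and a midzone of antiparallel microtubules directs cytokinesis. The genes for these proteins are transcribed late in the cell cycle, under the factors B-Myb with the MuvB complex, FOXM1 and NF-Y, so in bulk RNA their levels follow the fraction of dividing cells as well as the amount per cell. Neural progenitors and embryonic stem cells both divide rapidly.

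Mitosis and spindle genes changed little and in both directions in KD cells. Of the 32 genes with a measurable probe, 7 rose, 7 fell and 18 did not pass the test (limma, two-sided, adjusted p under 0.05 over all 29091 tested probes), and 16 had an unadjusted p under 0.05. Among all tested probes, 57.1% were called, 29.0% higher and 28.1% lower, so the 14 called genes, 43.75% of the 32, are not above that background. The called genes were Ect2, Prc1, Nusap1, Tpx2, Cenpa, Ccnb2 and Cdc20 on the higher side, and Nuf2, Spc24, Foxm1, Bub1, Cenpe, Ccnb1 and Birc5 on the lower side. Their folds ran from 1.14 to 1.49. No called gene reached 2-fold with its brightest probe, whereas 18.2% of all tested probes were called at 2-fold or more. The 4 KD and 4 Control values did not overlap for 15 genes, 46.9%, beside 54.1% of all tested probes. In bulk RNA, fewer dividing cells and less RNA per dividing cell cannot be told apart.

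In size, most of the changes lay below the median of all tested probes. The median change of the 32 genes was 0.06 (KD minus Control, log2), beside 0.05 for all tested probes. The median size of the change, whatever its sign, was 0.20 for the 32 genes and 0.43 for all tested probes. Of the 32 genes, 20 (62.5%) lay within 0.25 of 0, against 32.4% of 21753 genes represented in the same way by their brightest probe. The listed genes are mostly bright, and among the 7423 probes at least as bright as their lower quartile the median size was 0.35, with 63.9% called and 9.30% at 2-fold or more. For 15 of the 18 genes that did not pass, the 95% interval of the change at the brightest probe lay within 0.5 of 0. The exceptions were Cdk1, Ttk and Cenpf, so for these the arrays do not bound the change that closely. The bound covers the brightest probe only. Mad2l1 is among the 15, yet its other probes were called lower, with changes of -0.66 and -0.71.

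**Figure D1:**
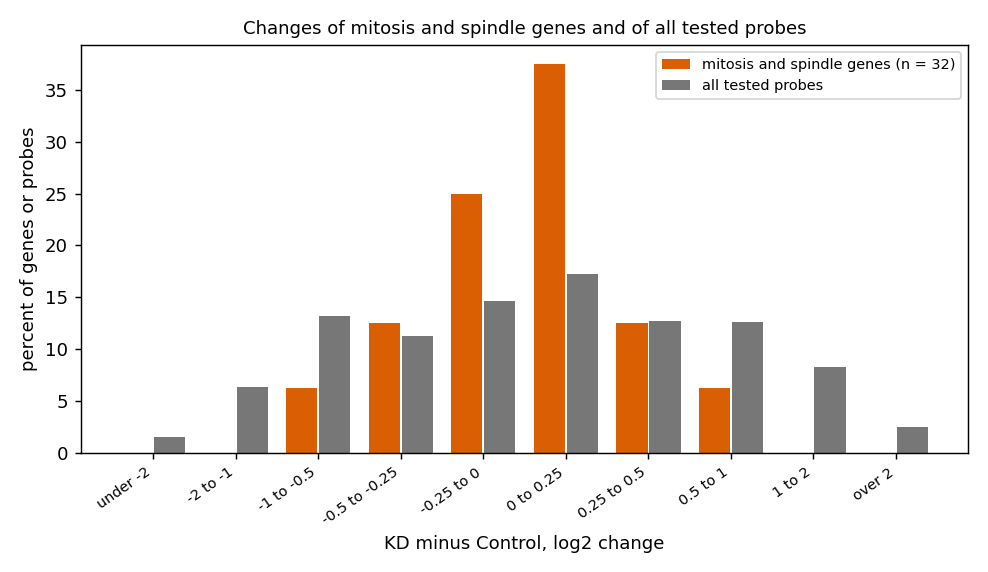
Share of genes or probes (vertical axis, percent) by KD minus Control change (horizontal axis, log2, in bins), for the 32 mitosis and spindle genes by their brightest probe and for all 29091 tested probes. The genes crowd into the 2 middle bins, which hold 25% and 37.5% of them, and none lies beyond 1 on either side.

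Levels below are log2 signals with the array's own 75th percentile subtracted, so 0 is that percentile, and levels of different probes are not compared. Changes are KD minus Control on this scale, with the limma standard error (SE). Each gene is represented by its brightest tested probe (by its mean over the 8 arrays), and positions are those of the files on build mm9.

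**Figure D2:**
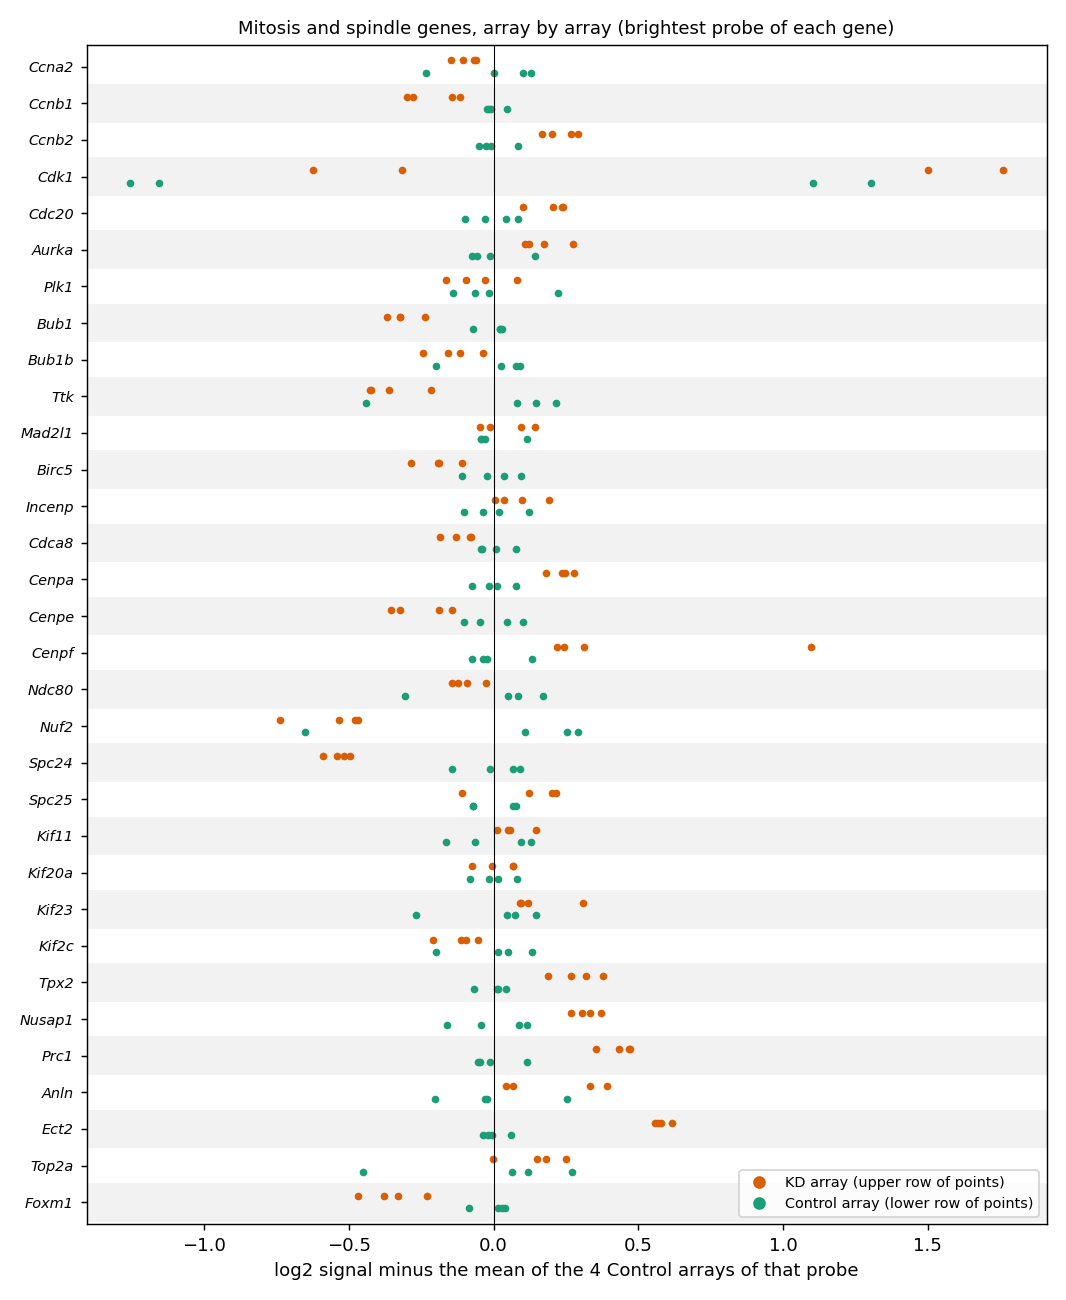
Each point is 1 array, drawn as its log2 signal minus the mean of the 4 Control arrays for that probe (horizontal axis), with KD arrays in the upper row and Control arrays in the lower row of each gene. The groups stand apart for Ect2, Prc1 and Spc24, and Cdk1 splits within both groups.

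Control spots aside, 59305 spots were read per array, of which 53.4% to 60.3% were well above background and 0 were saturated. The 75th percentile of the processed intensity lay between 483 and 696 units. Dnajc2, the current symbol of Zrf1, read -2.17, -2.08, -2.51 and -2.53 on the KD arrays, against 1.75, 1.87, 1.85 and 2.02 on the Control arrays. It fell by 4.19 (SE 0.12), 18.3-fold (limma adjusted p = 1.38e-07), the direction the labels give. The arrays sat on 3 slides, slide 1 with KD 1 and Control 2, slide 2 with KD 2, KD 3, Control 3 and Control 4, and slide 3 with KD 4 and Control 1. Many markers of cell states also differed between the groups. Called were 83.3% of the neural progenitor, 80% of the pluripotent, 100% of the endoderm, 70% of the neuronal and 66.7% of the fibroblast or feeder markers tested. Among all tested probes 57.1% were called, 29.0% higher and 28.1% lower. Of 12 neural progenitor markers, 10 fell and 0 rose, and their summed signal, in units of the 75th percentile, was 39.3 to 41.7 in KD and 133 to 146 in Control. Fabp7, counted among the 10, was above background on no KD array and entered the test through its Control arrays alone. Of 10 pluripotent markers 5 fell and 3 rose, with sums of 360 to 409 in KD and 414 to 465 in Control. Dppa5a, which was not called, made up most of that sum, and without it the sums were 40.4 to 43.4 in KD and 74.4 to 83.6 in Control. All 11 endoderm markers tested were called higher, 5 of them having entered the test through their KD arrays alone, with sums of 42.2 to 46.7 in KD and 13 to 16.8 in Control, and Sox7 and Afp were above background on no Control array. Lama1 made up 72.0% to 73.1% of that sum in KD and 81.0% to 82.5% in Control. Of 10 neuronal markers 3 rose and 4 fell, with sums of 17.4 to 20.4 in KD and 13 to 15.7 in Control. Without Snap25, which was called higher, these neuronal sums overlapped, at 12.06 to 13.07 in KD and 10.66 to 12.28 in Control. The higher KD sum therefore does not stand for the neuronal markers as a set. Of 9 fibroblast or feeder markers 6 rose and 0 fell, with sums of 109 to 136 in KD and 34.5 to 37.5 in Control. Tagln made up 88.1% to 89.8% of that last sum in KD and 79.7% to 81.0% in Control, and without it the sums were 12.3 to 13.8 in KD and 7.0 to 7.16 in Control. The sums add signals of different probes. The part of these shifts in the changes of the mitotic genes was not tested.

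The B-type cyclins moved in opposite directions by their brightest probes. Ccnb2, cyclin B2, read 5.90, 5.88, 5.78 and 5.81 on the KD arrays, against 5.56, 5.60, 5.69 and 5.58 on the Control arrays. Every KD array was above every Control array, and the gene rose by 0.23 (SE 0.064), 1.18-fold (limma adjusted p = 0.0133). Ccnb1, cyclin B1, the main partner of Cdk1 at entry into mitosis, read 4.76, 4.74, 4.90 and 4.92 on the KD arrays, against 5.03, 5.09, 5.02 and 5.02 on the Control arrays. Here every KD array was below every Control array, and the fall was 0.21 (SE 0.068), 1.16-fold (limma adjusted p = 0.0284). The call of Ccnb1 was lost when any of KD 1, KD 2, Control 1, Control 2 or Control 4 was left out, with limma adjusted p from 0.0302 to 0.0785 over the 8 such fits. Ccna2, cyclin A2, which acts from S phase into prophase, averaged 4.23 ± 0.039 in KD and 4.33 ± 0.17 in Control (SD, n = 4 each), a change of -0.10 with a 95% interval of -0.30 to 0.11 that did not pass (limma adjusted p = 0.41).

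Ccnb1 was covered by 3 probes that did not give the same answer, and their sequences are shown to place them along the transcript, 5′ to 3′. The gene lies on the minus strand of chromosome 13, and the probes sit at chr13:101553449-101553508 (upstream), chr13:101551224-101551283 (middle) and chr13:101548722-101548781 (downstream, the brightest), all mm9.
Ccnb1 upstream: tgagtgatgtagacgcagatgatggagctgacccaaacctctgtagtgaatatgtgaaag
Ccnb1 middle: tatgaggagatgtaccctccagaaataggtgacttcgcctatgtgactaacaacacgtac
Ccnb1 downstream: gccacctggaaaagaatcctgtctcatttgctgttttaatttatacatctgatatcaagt
On the upstream probe the KD arrays read 1.69, 1.85, 2.05 and 2.09, against 1.76, 1.84, 1.21 and 1.70 on the Control arrays. On the middle probe the KD arrays read 2.12, 2.34, 2.45 and 2.54, against 2.17, 2.24, 1.27 and 2.07 on the Control arrays. Control 3 was the lowest array on both and the groups overlapped. Their changes of 0.29 and 0.43 did not pass (limma adjusted p = 0.146 and 0.129), while the downstream probe was called lower. Averaged over its 3 probes Ccnb1 changed by 0.17, in the other direction and not called (limma adjusted p = 0.322).

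Cdk1, the kinase that cyclins A and B activate, could not be settled on these arrays. It has 3 probes on the minus strand of chromosome 10, and the 2 upstream ones, at chr10:68801072-68801131 and chr10:68801053-68801112, share 41 bases, which the capitals mark. Both hold 18.3% G and C, against a median of 43.3% over all tested probes.
Cdk1 brightest: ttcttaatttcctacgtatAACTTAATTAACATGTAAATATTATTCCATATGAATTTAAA
Cdk1 overlapping: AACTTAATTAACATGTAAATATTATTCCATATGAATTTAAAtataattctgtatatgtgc
Cdk1 downstream: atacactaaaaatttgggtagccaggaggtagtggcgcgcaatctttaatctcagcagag
The brightest probe read 0.17, 2.24, 1.98 and -0.14 on the KD arrays, against -0.77, -0.67, 1.79 and 1.59 on the Control arrays. Its high arrays were KD 2, KD 3, Control 3 and Control 4, the 4 arrays of slide 2, and the other 4 arrays were all lower. The change of 0.58 (SE 0.80) did not pass (limma adjusted p = 0.577), and with slide as a block it did (0.58, limma adjusted p = 0.00473). The overlapping probe was above background on no array. The downstream probe, at chr10:68799513-68799572, read -2.38, -1.44, -1.14 and -1.70 on the KD arrays, against -2.03, -2.44, -2.36 and -1.74 on the Control arrays, overlapping groups with a change of 0.48 that did not pass (limma adjusted p = 0.17). Of all tested probes, 278 (0.956%) stood at least 1 higher on the slide 2 arrays without overlap, as the brightest Cdk1 probe did.

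Cdc20, the activator that turns the APC/C on at anaphase, was slightly higher in KD. It read 5.95, 5.92, 5.81 and 5.95 on the KD arrays, against 5.68, 5.80, 5.76 and 5.61 on the Control arrays. The KD arrays were all above the Control arrays, by a narrow margin, and the gene rose by 0.20 (SE 0.069), 1.15-fold (limma adjusted p = 0.0406). That call was lost without KD 1, KD 2, KD 4, Control 1 or Control 4, with limma adjusted p up to 0.108, and with slide as a block (limma adjusted p = 0.0505). The mitotic kinases did not pass. Aurka, Aurora A, which matures centrosomes and builds the spindle, averaged 4.34 ± 0.076 in KD and 4.17 ± 0.099 in Control, a change of 0.17 with a 95% interval of -0.0041 to 0.34 (limma adjusted p = 0.0883), and it was called only without Control 3 among the fits that left out 1 array (0.22, limma adjusted p = 0.0276). Plk1, Polo-like kinase 1, which acts from mitotic entry to cytokinesis, averaged 5.40 ± 0.10 in KD and 5.45 ± 0.16 in Control, a change of -0.05 with a 95% interval of -0.28 to 0.17 (limma adjusted p = 0.68).

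Of the 4 genes of the spindle assembly checkpoint, Bub1 fell and the other three did not pass by their brightest probes. Bub1, a kinase that loads checkpoint proteins onto kinetochores, was printed at 10 spots per array and read 2.75, 2.88, 2.80 and 2.80 on the KD arrays, against 3.15, 3.14, 3.05 and 3.14 on the Control arrays. All KD arrays lay below all Control arrays, and the fall was 0.31 (SE 0.062), 1.24-fold (limma adjusted p = 0.00252). Bub1b, which encodes BubR1, a part of the complex that inhibits Cdc20, averaged 2.51 ± 0.086 in KD and 2.64 ± 0.14 in Control and changed by -0.14 (95% interval -0.34 to 0.06, limma adjusted p = 0.212). Ttk, the kinase Mps1 that starts the checkpoint signal, read -0.90, -0.69, -0.84 and -0.90 on the KD arrays, against -0.40, -0.26, -0.92 and -0.33 on the Control arrays. Control 3 lay below all KD arrays and the other Control arrays above them, and the change of -0.36 did not pass (limma adjusted p = 0.0675). Without Control 3, Ttk was called lower (-0.50, limma adjusted p = 0.00132), and so was Bub1b (-0.20, limma adjusted p = 0.0412).

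Mad2l1, which encodes Mad2, the checkpoint protein that captures Cdc20, differed between its probes. They lie within 828 bases of each other on the plus strand of chromosome 6, at chr6:66490067-66490126 (upstream), chr6:66490355-66490414 (middle) and chr6:66490836-66490895 (downstream, the brightest), and are shown in that order.
Mad2l1 upstream: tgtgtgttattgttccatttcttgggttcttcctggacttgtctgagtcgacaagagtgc
Mad2l1 middle: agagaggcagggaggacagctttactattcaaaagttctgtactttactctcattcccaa
Mad2l1 downstream: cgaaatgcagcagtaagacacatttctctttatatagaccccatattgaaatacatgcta
On the upstream probe the signal was -0.21, -0.06, -0.07 and 0.0034 on the KD arrays, against 0.77, 0.84, 0.15 and 0.56 on the Control arrays. The middle probe gave 0.75, 0.95, 0.71 and 0.70 on the KD arrays, against 1.51, 1.75, 1.24 and 1.44 on the Control arrays. Neither overlapped between groups, and both were called lower, by 0.66 and 0.71 (limma adjusted p = 0.00517 and 0.00101). On the downstream probe the KD arrays read 5.0, 4.95, 4.85 and 4.81, against 4.81, 4.83, 4.97 and 4.82 on the Control arrays, an overlapping pair of groups with a change of 0.05 that did not pass (95% interval -0.12 to 0.21, limma adjusted p = 0.638). The interval of that probe excludes the changes of the other probes. Averaged over its 3 probes Mad2l1 was called lower (-0.44, limma adjusted p = 0.00223).

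The chromosomal passenger complex corrects wrong attachments and later marks the midzone, with Aurora B as its kinase and survivin, INCENP and borealin holding it in place. Aurkb, for Aurora B, had 1 probe, at chr11:68865105-68865164 on the plus strand, which holds 20% G and C and was well above background on none of the 8 arrays. Its level was not measured here. Of 153 probes on the array with at most 20% G and C, 3.92% were tested, against 52.2% of all probes. Birc5, for survivin, read 6.15, 5.97, 6.07 and 6.07 on the KD arrays, against 6.15, 6.29, 6.35 and 6.23 on the Control arrays. The highest KD array and the lowest Control array were equal to 2 decimals, and the gene fell by 0.19 (SE 0.072), 1.14-fold (limma adjusted p = 0.0478). The call of Birc5 was lost without KD 2, KD 3, KD 4, Control 2, Control 3 or Control 4, with limma adjusted p up to 0.121, and with slide as a block (limma adjusted p = 0.0604). Its other probes, with changes of -0.08 and -0.32, did not pass. The second of these stood apart by slide as the brightest Cdk1 probe did, reading -0.17, 0.97, 1.15 and -0.33 on the KD arrays, against 0.06, 0.19, 1.24 and 1.41 on the Control arrays, with the 4 arrays of slide 2 highest. With slide as a block that probe was called lower (-0.32, limma adjusted p = 0.0141). Averaged over its 3 probes Birc5 was not called (-0.20, limma adjusted p = 0.306). Incenp averaged 5.83 ± 0.082 in KD and 5.75 ± 0.094 in Control and Cdca8, for borealin, 5.72 ± 0.050 in KD and 5.84 ± 0.056 in Control. Neither passed, with changes of 0.08 and -0.12 (limma adjusted p = 0.393 and 0.139), although the Cdca8 groups did not overlap, and the second probe of each was also not called.

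Centromere and kinetochore genes held the lowest changes of the list. Of 7 genes, Cenpa rose, Cenpe, Nuf2 and Spc24 fell, and Cenpf, Ndc80 and Spc25 did not pass. Cenpa, the histone H3 variant that marks centromeres, read 4.85, 4.75, 4.80 and 4.81 on the KD arrays, against 4.55, 4.58, 4.65 and 4.49 on the Control arrays. Each KD array was above each Control array, and the rise was 0.23 (SE 0.062), 1.18-fold (limma adjusted p = 0.0116). Cenpe, the kinetochore kinesin that moves chromosomes to the spindle equator, read 4.26, 4.12, 4.09 and 4.30 on the KD arrays, against 4.4, 4.49, 4.55 and 4.35 on the Control arrays. The groups did not overlap and the fall was 0.25 (SE 0.079), 1.19-fold (limma adjusted p = 0.0247). Without KD 2, KD 3, Control 2 or Control 3 the Cenpe call was lost, with limma adjusted p up to 0.0692.

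Ndc80, Nuf2, Spc24 and Spc25 encode the 4 subunits of the Ndc80 complex, which binds microtubules at the outer kinetochore. Spc24 and Nuf2 fell, and Ndc80 and Spc25 did not pass. Spc24 read 2.44, 2.42, 2.40 and 2.35 on the KD arrays, against 2.79, 2.93, 3.03 and 3.01 on the Control arrays. Its groups were well separated, and it fell by 0.54 (SE 0.072), 1.45-fold (limma adjusted p = 0.000301). Nuf2 read 1.04, 1.24, 1.31 and 1.30 on the KD arrays, against 2.03, 2.07, 1.12 and 1.88 on the Control arrays at its brightest probe. Control 3 lay within the KD range there while the other Control arrays lay above it, and the fall of 0.55 (SE 0.21), 1.47-fold, passed narrowly (limma adjusted p = 0.0478). Of the 8 fits that left out 1 array, only the one without Control 3 called this probe (-0.77, limma adjusted p = 0.000359), and the other 7 did not, with limma adjusted p up to 0.12. With slide as a block it was not called either (limma adjusted p = 0.0652). The second Nuf2 probe lies 3′ of it on the minus strand of chromosome 1, at chr1:171428269-171428328 against chr1:171428989-171429048, and both are printed because they differ in size of change.
Nuf2 brightest: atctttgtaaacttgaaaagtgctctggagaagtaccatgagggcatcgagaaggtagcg
Nuf2 downstream: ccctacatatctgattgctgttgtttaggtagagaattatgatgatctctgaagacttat
The downstream probe read -3.07, -2.39, -2.49 and -2.34 on the KD arrays, against -1.0, -0.87, -0.84 and -1.01 on the Control arrays. It fell by 1.64 (SE 0.16), 3.12-fold (limma adjusted p = 4.81e-05), with every array of each group apart from the other group, Control 3 included. Ndc80 averaged 1.93 ± 0.051 in KD and 2.02 ± 0.21 in Control, a change of -0.10 that did not pass (95% interval -0.34 to 0.15, limma adjusted p = 0.487). Spc25 averaged 5.32 ± 0.15 in KD and 5.21 ± 0.084 in Control, a change of 0.11 that did not pass (95% interval -0.10 to 0.32, limma adjusted p = 0.353). Whether the changes of the subunits differ from each other was not tested. Cenpf, a large kinetochore protein, read -2.32, -2.23, -1.44 and -2.30 on the KD arrays, against -2.58, -2.41, -2.61 and -2.56 on the Control arrays. KD 3 stood far above the other KD arrays, and the change of 0.47 did not pass (limma adjusted p = 0.0697) but was called without KD 3 (0.26, limma adjusted p = 0.029).

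None of the 4 mitotic kinesins passed the test. These are Kif11, which slides spindle poles apart, Kif20a and Kif23, motors of the midzone, and Kif2c, which removes tubulin at centromeres. Kif11 averaged 1.42 ± 0.058 in KD and 1.35 ± 0.14 in Control and Kif20a 3.88 ± 0.068 in KD and 3.86 ± 0.067 in Control. Kif23 averaged 1.69 ± 0.10 in KD and 1.54 ± 0.18 in Control and Kif2c 1.4 ± 0.067 in KD and 1.52 ± 0.14 in Control. Their changes ran from -0.12 for Kif2c to 0.15 for Kif23, and all 4 of their 95% intervals lay within 0.5 of 0.

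The 3 spindle microtubule factors rose by their brightest probes. Prc1, which bundles antiparallel microtubules in the midzone, read 4.81, 4.81, 4.69 and 4.77 on the KD arrays, against 4.29, 4.33, 4.46 and 4.29 on the Control arrays. It rose by 0.43 (SE 0.067), 1.35-fold (limma adjusted p = 0.000699), and the groups stood clearly apart. Nusap1, which bundles microtubules near chromosomes, read 3.41, 3.45, 3.48 and 3.51 on the KD arrays, against 3.26, 3.23, 2.98 and 3.1 on the Control arrays, with all KD arrays above all Control arrays, and rose by 0.32 (SE 0.078), 1.25-fold (limma adjusted p = 0.00816). Tpx2, which activates Aurora A and starts microtubules around chromatin, read 3.50, 3.56, 3.37 and 3.45 on the KD arrays, against 3.19, 3.23, 3.12 and 3.20 on the Control arrays at its brightest probe. It rose by 0.29 (SE 0.066), 1.22-fold (limma adjusted p = 0.00581). Its second probe, 3′ of the first, read -1.18, -0.98, -1.28 and -1.11 on the KD arrays, against -0.78, -0.57, -1.45 and -0.70 on the Control arrays, which overlapped, and changed by -0.26, not called (limma adjusted p = 0.269). That probe was called lower without Control 3 (-0.45, limma adjusted p = 0.00515), so the direction of Tpx2 depends on the probe. Averaged over both probes Tpx2 changed by 0.014 and was not called (limma adjusted p = 0.93).

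Ect2 had the largest rise among the called genes. It encodes the exchange factor that activates RhoA where the cleavage furrow forms. The brightest probe, at chr3:26996278-26996337 on the minus strand of chromosome 3, read 4.32, 4.27, 4.28 and 4.27 on the KD arrays, against 3.69, 3.70, 3.77 and 3.67 on the Control arrays. The group means were 4.29 ± 0.026 in KD and 3.71 ± 0.043 in Control (SD, n = 4 each), with no overlap, and the rise was 0.58 (SE 0.057), 1.49-fold (limma adjusted p = 4.91e-05). A second probe lies 24.6 kb upstream, at chr3:27020829-27020888, and was designed on a cDNA entry and not on the RefSeq transcript of the first.
Ect2 brightest: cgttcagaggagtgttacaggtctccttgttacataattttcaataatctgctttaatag
Ect2 upstream: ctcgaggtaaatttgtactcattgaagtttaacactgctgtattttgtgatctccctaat
The upstream probe read -2.11, -2.27, -1.84 and -2.22 on the KD arrays, against -3.96, -3.96, -3.86 and -3.78 on the Control arrays, and was well above background on 3 of 4 Control arrays and on all KD arrays. Its KD arrays all read higher, but the probe entered the test through its KD arrays alone, so the difference is given with no test and adds no support to the first probe. Anln, anillin, which links the furrow's actin and septins, averaged 4.06 ± 0.18 in KD and 3.86 ± 0.19 in Control and did not pass, with a change of 0.21 (95% interval -0.08 to 0.49, limma adjusted p = 0.191). Top2a, the topoisomerase that untangles sister DNA, averaged 3.83 ± 0.11 in KD and 3.69 ± 0.31 in Control, with Control 3 the lowest array, and changed by 0.15 (95% interval -0.21 to 0.50, limma adjusted p = 0.458).

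Foxm1, the transcription factor that drives many genes of this list late in the cell cycle, fell. It read 2.03, 1.92, 1.79 and 1.87 on the KD arrays, against 2.28, 2.27, 2.29 and 2.17 on the Control arrays. The groups did not overlap, and the fall was 0.35 (SE 0.072), 1.28-fold (limma adjusted p = 0.00329). Its second probe changed by -0.29 with a 95% interval of -0.60 to 0.03 and was not called (limma adjusted p = 0.109).

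**Figure D3:**
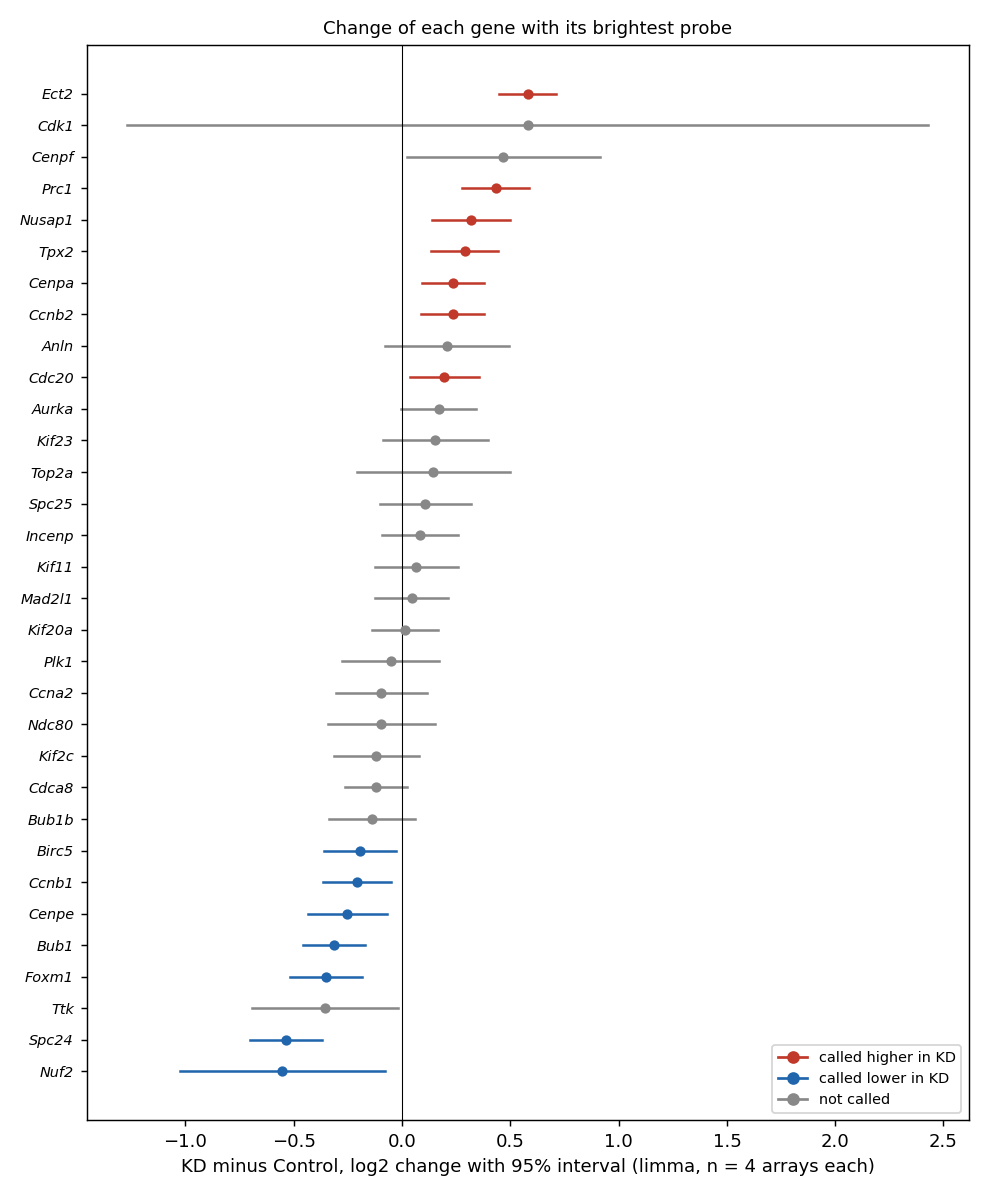
KD minus Control change (horizontal axis, log2) of the 32 genes by their brightest probe, with points for the limma estimate and bars for the 95% interval (n = 4 arrays per group), ordered by change. Most intervals are short and lie near 0, from Nuf2 at -0.55 to Ect2 at 0.58, while the interval of Cdk1 is the widest.

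Over the 11 genes with more than 1 tested probe, 6 had the same call on all probes (Cdk1, Incenp, Cdca8, Nuf2, Kif2c and Ect2), and for 8 all probes had the same sign. Ect2 is among them only through the upstream probe that entered the test by its KD arrays alone. Ccnb1, Mad2l1 and Tpx2 had probes of opposite sign, and Birc5 and Foxm1 had 1 called probe each. The remaining 21 genes rest on 1 tested probe.

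**Figure D4:**
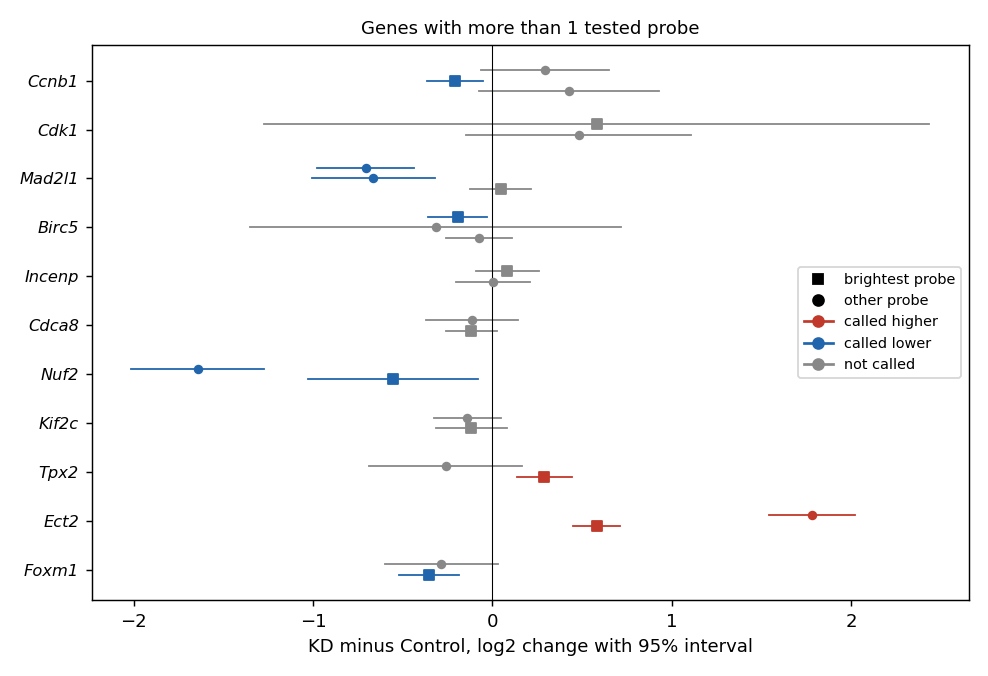
KD minus Control change (horizontal axis, log2) with 95% intervals for each tested probe of the 11 genes that have several, with squares for the brightest probe, circles for other probes and colours for the call. Both Ect2 probes lie above 0 and both Nuf2 probes lie below it, while the probes of Ccnb1, Mad2l1 and Tpx2 lie on both sides. The upstream Ect2 probe entered the test by its KD arrays alone, so its interval and colour are drawn but not taken as a test.

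One Control array weighed on several of these results. Over 3415 genes with probes at least 500 bases apart, the upstream minus the downstream signal, centred on each gene's mean over arrays, had a median of -0.14 on Control 3 and of -0.06 to 0.10 on the other arrays. Without Control 3, 8 genes were called higher and 8 lower. Of the 14 called genes 12 kept their call, Birc5 and Cenpe lost it, Aurka was added on the higher side and Ttk, Bub1b and Ndc80 on the lower. The part of RNA quality in this was not tested. The number called lower was 3 without KD 2 or Control 2 and 4 without KD 3 or Control 4, and 9 of the 14 genes were called in every fit without 1 array (Ccnb2, Cenpa, Tpx2, Nusap1, Prc1, Ect2, Bub1, Spc24 and Foxm1). With the KD arrays of each file number averaged, as 2 KD values against 4 Control values, Tpx2, Prc1 and Ect2 were called higher and Bub1, Spc24 and Foxm1 lower, with Cenpf added on the higher side. A fit that blocked on slide had 7 genes higher and 5 lower, with Cdc20, Birc5 and Nuf2 losing their call and Cdk1 gaining one. All 14 called genes had 1 sign on all 3 slides, as had 8 of the 18 not called. The slides hold the same arrays that gave the calls, so this is a description and adds no support to them.

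The scale on which the arrays are aligned changed several calls. With arrays scaled to their median in place of the 75th percentile, the median change of all tested probes was -0.12 instead of 0.05, and 37.7% of the calls were on the higher side instead of 50.8%. On that scale Ect2 was the only one of the 7 risen genes still called, and all 7 fallen genes stayed called with Bub1b and Ttk added. With quantile normalization all 7 risen genes stayed called and Aurka, Incenp and Anln were added, while Bub1, Spc24 and Foxm1 of the 7 fallen genes stayed called and Ttk was added. No called gene changed sign under any of the 4 other scalings. Relative to the median of all tested probes, the changes were 0.53 for Ect2, 0.38 for Prc1, -0.40 for Foxm1 and -0.58 for Spc24, values that a shift of all probes together leaves as they are.

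Other genes of mitosis fell more often than they rose. Of 159 genes in 8 lists of related functions, 149 were tested, of which 18 rose, 64 fell and 67 did not pass, which makes 12.1% higher and 43.0% lower, against 29.0% and 28.1% of all tested probes, and 55.0% called against 57.1%. Their median change was -0.18, beside 0.05 for all tested probes. Of the 149 genes, 8 were called at 2-fold or more, beside 18.2% of all tested probes. The 8 include Rbl2, which entered the test through its KD arrays alone. The shares called and median changes of each list below stand beside the same 57.1% and 0.05 of all tested probes. With median scaling 9 rose and 73 fell, and with quantile normalization 24 rose and 56 fell.

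Among condensin genes, which fold mitotic chromosomes, 1 of 8 rose and 1 fell (25% called, median change -0.09). Ncapd3 of condensin II rose by 0.38 and Ncapg of condensin I fell by 0.74 (limma adjusted p = 0.00886 and 9.24e-05). Among genes of cohesin, the ring that holds sister chromatids, and its release, 2 of 17 rose and 7 fell (52.9% called, median change -0.12). Esco2, which acetylates cohesin in S phase, rose by 0.99, averaging 0.41 ± 0.15 in KD and -0.58 ± 0.37 in Control (limma adjusted p = 0.00162), and Sgo2a, a shugoshin that protects centromeric cohesin, rose by 0.55 (limma adjusted p = 0.00132). The cohesin subunit Stag1 averaged 0.98 ± 0.036 in KD and 1.98 ± 0.018 in Control and fell 2.00-fold (limma adjusted p = 2.17e-06), and the regulator Pds5a fell 1.78-fold (limma adjusted p = 0.000151). Of 16 APC/C genes 9 fell and 1 rose (62.5% called, median change -0.24). The ubiquitin-conjugating enzyme Ube2c, the riser, went up by 0.19 (limma adjusted p = 0.0436), a call that held in 1 of the 8 fits without 1 array, where limma adjusted p ran up to 0.108. The subunits Anapc5 and Cdc27 fell by 0.73 and 0.63 (limma adjusted p = 3.73e-05 and 0.000181), with 2 of the 3 Anapc5 probes called that way.

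Of 31 other centromere and kinetochore genes 18 fell and 3 rose (67.7% called, median change -0.30). Cenpm, of the inner kinetochore, averaged -0.02 ± 0.12 in KD and 1.46 ± 0.13 in Control and fell 2.79-fold (limma adjusted p = 3.8e-06), and Cenpb, which binds the CENP-B box of centromeric satellite DNA, fell 2.82-fold (limma adjusted p = 1.45e-05), with 2 of its 3 probes called that way. Cenpo, also of the inner kinetochore, rose by 0.79 and Nsl1, of the Mis12 complex, by 0.45 (limma adjusted p = 1e-05 and 0.00387), each with 1 of 2 probes called. Among 28 other motor and spindle genes 6 were called higher and 7 lower (46.4% called, median change -0.12). Cep55, which organises the last step of cytokinesis, averaged 1.05 ± 0.065 in KD and -0.05 ± 0.14 in Control and rose 2.15-fold with both probes called (limma adjusted p = 1.14e-05). The microtubule plus-end protein Clasp1 fell by 1.03 (limma adjusted p = 6.12e-05). Its relative Clasp2, counted among the 6, averaged -3.13 ± 0.26 in KD and -3.83 ± 0.21 in Control, but was well above background on 2 of 4 Control arrays and entered the test through KD alone, so no change is given. With probes required above background on all 8 arrays, 5 of 27 rose and 7 fell. Kif15, a kinesin that works beside Kif11, fell by 0.93 (limma adjusted p = 0.002).

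Of 19 centrosome genes 10 fell and 1 rose (57.9% called, median change -0.22). Cep135, of the centriole, fell by 0.94 and the scaffold Pcnt, pericentrin, by 0.80, and Nedd1, which brings gamma-tubulin to spindles, rose by 0.38 (limma adjusted p = 9.28e-06, 0.00011 and 0.0013). Of 16 genes for entry into mitosis 5 fell and 0 rose (31.25% called, median change -0.19), with Arpp19, an inhibitor of the phosphatase PP2A-B55, lower by 0.79 and Pkmyt1, an inhibitory kinase of Cdk1, lower by 0.56 (limma adjusted p = 0.00036 and 0.000229). Among 14 genes of the MuvB and B-Myb complexes and their partners 7 were called lower and 4 higher (78.6% called, median change -0.20). Nfyc, a subunit of the CCAAT-binding factor NF-Y, averaged 2.77 ± 0.037 in KD and 4.86 ± 0.11 in Control and fell 4.25-fold (limma adjusted p = 2.59e-07). Nfya, the subunit that reads the CCAAT box, rose by 0.78 (limma adjusted p = 0.00694). The pocket protein Rbl1 fell by 0.78 with 1 of 2 probes called (limma adjusted p = 0.000824). Rbl2, another pocket protein and counted among the 4, averaged -2.54 ± 0.17 in KD and -3.92 ± 0.52 in Control, but was well above background on 2 of 4 Control arrays and entered the test through KD alone, so no change is given. With probes required above background on all 8 arrays, 3 of 13 rose and 7 fell.

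**Figure D5:**
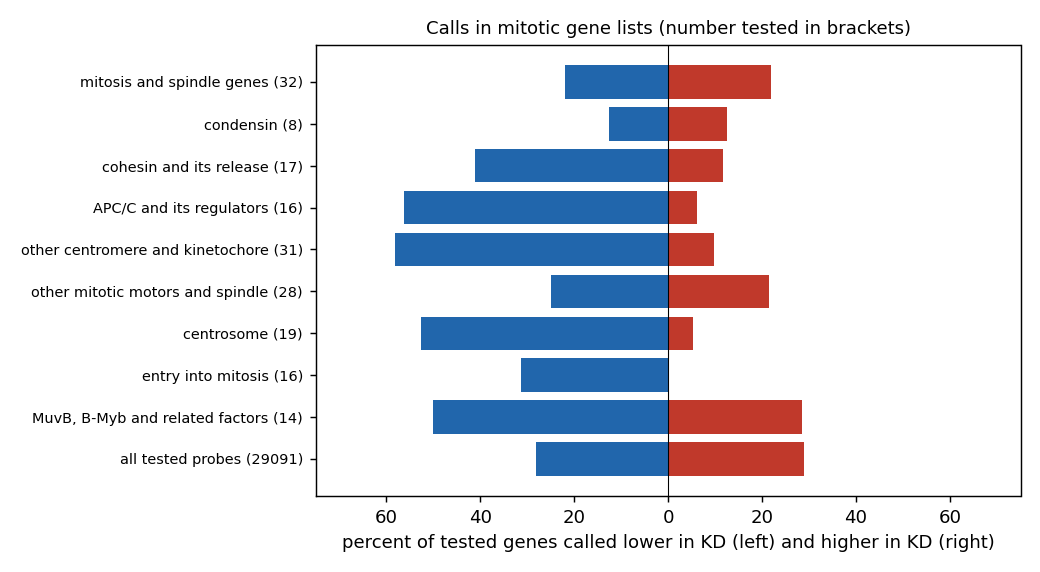
Percent of tested genes called lower in KD (bars to the left) and higher in KD (bars to the right) in the 32 mitosis and spindle genes, the 8 lists of related genes and all 29091 tested probes, with the number tested in brackets. The 32 genes and the condensin list show equal bars on both sides. All the other lists have longer bars on the lower side, by little for the other mitotic motors and spindle genes.

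Promoters of these genes were read because the genes are known to share late cell cycle elements, the CCAAT box bound by NF-Y and the cell cycle genes homology region (CHR) bound by MuvB. The RefSeq promoter table (GRCm38.p6) matched 26 of the 33 genes in 28 windows, and Ccna2, Aurkb, Incenp, Spc24, Kif20a, Tpx2 and Foxm1 had no entry used here. In the 250 bases before the start, CCAAT on either strand stood in 21 of 28 windows (75%), against 33.8% of all 32851 windows, and at least 2 copies in 14 (50%), against 10.1%. The CHR letters TTTGAA stood on either strand in 9 windows (32.1%), against 16.0% of all. TTTAAA stood in 6 (21.4%), against 12.1%, and TTCGAA in 2 (7.14%), against 1.34%, and both of these read the same on the other strand. The motifs were searched separately, and any of the 3 stood in 15 (53.6%), against 26.2%. Counted by gene, since the windows of Ect2 and Prc1 overlap, TTTGAA stood in 4 of 6 genes called higher, 0 of 5 called lower and 4 of 15 not called. TTTAAA stood in 1 of 6 higher, 2 of 5 lower and 3 of 15 not called, and TTCGAA in 0 of 6 higher, 0 of 5 lower and 2 of 15 not called. Any of the 3 stood in 5 of 6 higher, 2 of 5 lower and 7 of 15 not called, and CCAAT in 5 of 6 higher, 3 of 5 lower and 11 of 15 not called. These counts are small and were not tested. These are descriptions of letters and not of bound factors.

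The 150 bases before the start are printed for some of the genes called higher and some called lower, 5′ to 3′ in the direction of the gene. CCAAT (or ATTGG, its other strand), TTTGAA and TTTAAA are in capitals. They lie at chr3:27153879-27154028 (minus strand) for Ect2, chr7:80294326-80294475 (plus strand) for Prc1, chr13:100786487-100786636 (minus strand) for Ccnb1, chr2:127831860-127832009 (minus strand) for Bub1 and chr1:169531465-169531614 (minus strand) for Nuf2, all GRCm38.p6. Ect2 and Prc1 have 2 overlapping windows each, of which 1 is shown.
Ect2: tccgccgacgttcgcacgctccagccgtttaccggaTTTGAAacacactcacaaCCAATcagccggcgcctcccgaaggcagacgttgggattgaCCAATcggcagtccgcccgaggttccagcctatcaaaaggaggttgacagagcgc
Prc1: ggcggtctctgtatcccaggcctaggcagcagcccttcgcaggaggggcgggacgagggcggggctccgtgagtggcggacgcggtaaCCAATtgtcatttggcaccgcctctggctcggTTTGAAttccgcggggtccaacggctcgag
Ccnb1: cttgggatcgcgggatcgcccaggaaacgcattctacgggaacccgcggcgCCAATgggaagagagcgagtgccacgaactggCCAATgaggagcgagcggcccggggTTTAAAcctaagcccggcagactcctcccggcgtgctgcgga
Bub1: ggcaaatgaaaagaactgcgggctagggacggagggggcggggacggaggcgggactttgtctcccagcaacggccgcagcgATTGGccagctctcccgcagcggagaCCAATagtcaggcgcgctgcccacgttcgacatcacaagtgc
Nuf2: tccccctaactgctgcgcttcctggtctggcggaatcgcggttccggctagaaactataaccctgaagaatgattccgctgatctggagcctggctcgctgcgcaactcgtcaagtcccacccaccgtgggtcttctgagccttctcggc
The risen genes Ect2 and Prc1 hold CCAAT and TTTGAA in these windows, and the other Prc1 window, which ends further upstream, holds CCAAT and no TTTGAA in its 150 bases. The fallen gene Ccnb1 holds 2 CCAAT and 1 TTTAAA, the fallen gene Bub1 holds 2 CCAAT and none of the CHR letters, and the fallen gene Nuf2 holds none of either. Of called genes not printed, the risen gene Nusap1 also holds none of either in its 150 bases. The fallen gene Cenpe, not printed either, holds 1 CCAAT and none of the CHR letters there.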

How the data were processed

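The authors' deposited scanner files give 1-colour (Cy3) intensity per spot from Agilent Feature Extraction 10.7.3.1 on design 028005, background-corrected per the file headers and not scaled between arrays. The authors' deposited value table holds log2 values, whose making is not given in the sources used here, and served as an alternative. Outlier spots were removed, spots of a probe averaged, log2 taken and each array's 75th percentile subtracted. The test took the 29091 of 55681 probes that every array of KD, or every array of Control, read well above background. It was limma 3.58.1 (R 4.3.3), two-sided, with lmFit, eBayes and Benjamini-Hochberg adjustment over all of them at a threshold of 0.05, and was checked on simulated data. The simulated noise was independent between arrays, with no slide effect and few changed probes, so the check does not cover slides, related arrays or scaling. Groups came from the labels. Alternatives covered scaling, normexp with an offset of 50, filters, slide, blocks, probe choice and leaving out each array. The number of arrays, 8, limits precision. Members and lists were chosen with earlier results of these data known. Named genes were all 33, Dnajc2 and, from each related list, up to 2 called in each direction with the largest change. No mm9 annotation was used, so exons and UTRs of probes were not analysed here.

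Same-numbered KD and Control arrays had correlations of deviations of 0.11, -0.12, 0.11 and -0.19. These few values, from pairs mostly on different slides, do not settle whether the numbers pair samples. KD arrays of one file number had -0.31 and -0.37, and the other pairs of KD arrays -0.51 to -0.03. Deviations are taken from the mean of the group, which pulls pairs within a group below 0. These values therefore do not show whether arrays of one file number are technical copies. With file number as a random block the consensus correlation was 0.22. The 6 pairs of a KD and a Control array on 1 slide had 0.11 to 0.32, and the 10 pairs on different slides -0.26 to 0.11. Slide as a block was an alternative.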

Additional observations from a re-analysis of the deposited data

Results flagged for a closer look

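In 4 of 64 groups of 4 arrays, 1 array stood far from the other 3, where chance alone gives about 1 in 20 groups. Values are log2 signals minus the array's 75th percentile. Cenpf read -1.44 on KD 3, above the -2.32 to -2.23 of the other KD arrays. Kif23 read 1.85 on KD 2, above the 1.63 to 1.66 of the other KD arrays. Bub1 read 3.05 on Control 3, below the 3.14 to 3.15 of the other Control arrays. Mad2l1 read 4.97 on Control 3, above the 4.81 to 4.83 of the other Control arrays at its brightest probe.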

How the results depend on the processing

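Of the 32 tested mitosis and spindle genes, 7 were called higher and 7 lower. The number called higher was 1 with median scaling, 4 without the filter on dim probes, 4 with KD arrays of one file number averaged and 2 with slide 2 alone. The number called lower was 4 with quantile normalization, 4 with normexp and quantile normalization, 4 with the authors' value table, 3 without the filter, 3 with those KD arrays averaged and 1 with slide 2 alone. Leaving out 1 array gave 6 to 8 higher and 3 to 8 lower, with 8 and 8 without Control 3. With the replicate number as a block, 4 were called higher and 3 lower. Whether the numbers pair samples is not known, so this fit is given only as an alternative. The median change of the genes, 0.06, was -0.12 with median scaling, 0.14 with quantile normalization and -0.026 with slide 3 alone, and 0.03 to 0.07 without 1 array. Over all tested probes, 8436 were called higher and 5603 with median scaling, and leaving out 1 array gave 7904 to 8272 higher and 7607 to 8255 lower. Of the related genes, 18 were called higher and 64 lower. The count higher was 9 with median scaling, slide 2 alone gave 11 higher and 30 lower, and leaving out 1 array gave 17 to 18 higher and 59 to 67 lower. Ccnb1 turned to 0.17 with the mean of its probes (limma adjusted p = 0.322). That mean also called Mad2l1 lower and ended the calls of Tpx2 and Birc5. Tpx2 turned to -0.26 when its 3′-most probe stood for it (limma adjusted p = 0.269), an alternative added after seeing the data. The causes were not tested. Averaging the KD pairs and slide 2 alone leave fewer samples. Of the changes of single genes under all alternatives, 1199 of 1343 were counted as unchanged, with the same side of the threshold where a test was run. That count did not require the same direction for genes that were not called. It includes Aurka, Mad2l1 and Incenp with median scaling, which went from 0.17, 0.05 and 0.08 to -0.0017, -0.13 and -0.09. Ect2 and Spc24 were called in all 22 alternatives with a test, and Bub1 and Foxm1 in 21. A probe's signal over background set which genes could be measured, and Aurkb and 1 Cdk1 probe fell below it.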
